A study of Mus musculus with 20 samples.

Results

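Cytosolic ribosomal proteins, the protein subunits of the ribosomes that translate nuclear-encoded mRNA, were followed in the quadriceps of old mice 3 h after an injection of stem cell secretome or saline. Members were the protein-coding genes whose symbols name a protein of the large subunit (Rpl, with the stalk proteins Rplp0, Rplp1 and Rplp2) or of the small subunit (Rps, with Rpsa and Fau), with at least 10 counts in 10 or more libraries. This gave 82 genes of the 55416 listed, 49 of the large and 33 of the small subunit. Of 90 symbols with such a name, 6 belonged to annotated pseudogenes, and 2 protein-coding genes missed the count rule, Rpl10l with at most 13 counts and Rpl39l with at most 5 counts in any library. The member with the smallest maximum was Rps10, with 304 counts. All 82 members passed the filter on low counts.

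Control mice received a single 50 µL intramuscular dose of saline (0.9%), and treated mice a single 50 µL dose of a cell-free product made from medium of partially differentiated human embryonic stem cells. All were wild-type C57BL/6J males of 26 to 28 months, 10 in each group, and RNA of the injected quadriceps was sequenced. Each library is the muscle of 1 mouse, and p-values measure the spread between these mice.

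A ribosome joins a small subunit, which reads the mRNA, to a large subunit, which forms the peptide bonds, and each subunit holds one copy of most of its proteins. In mammals most mRNAs for these proteins start with a cytosine followed by a run of pyrimidines, the 5′ terminal oligopyrimidine (TOP) tract, through which mTOR and LARP1 control their translation and stability as a group. In heart and skeletal muscle, Rpl3l is expressed beside its paralogue Rpl3. Ribosomal protein genes are expressed in all cell types, so in these bulk samples a change in the mix of cells and a change in RNA per cell cannot be told apart.

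Total counts per library ranged from 13286983 to 22987237, and members took 0.613% to 1.33% of them. Titin (Ttn) took 7.02% to 11.03% of counts in libraries 1 to 5, all controls, 16.4% to 21.1% in libraries 6 to 15 and 14.2% to 14.7% in libraries 16 to 20, all secretome-treated. Libraries 6 to 15 held control replicates 6 to 10 and secretome replicates 1 to 5 and were also compared alone, a range drawn with those shares known. The summed level of 8 myofibre markers (such as Acta1 and Ckm) was 71023 to 127490 CPM (counts-per-million, scaled by TMM) in every muscle, against 5.61 to 15.6 CPM for 3 satellite cell markers and 100.2 to 188 CPM for 5 endothelial markers. The 5 blood markers, globins and Alas2, summed to 100.4 to 1375 CPM in control and 100.1 to 941 CPM in secretome-treated muscle.

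The outermost 5′ start of each gene was read from the RefSeq promoter table (GRCm38.p6), which held an entry for 62 of the 82 members. Where a gene had further starts in that table, they were not searched. A tract was searched on the sense strand as a C followed by at least 4 bases that were each C or T. The sequence read from the annotated start onward opened with such a run in 13 of the 62 members (20.97%), against 2.48% of 27025 genes of the table. That run could be part of a tract that began before the start, as in Fau, Rps27, Rps6 and Rpl35. Within the 30 bases from 10 before the start a tract was found in 39 members (62.9%), against 35.8% of the genes. The windows shown are of members on which the results below turn, 5′ to 3′ on the strand of the gene, with the longest tract in capitals.

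Fau (chr19:6057937-6057966, plus strand): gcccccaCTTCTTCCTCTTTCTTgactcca
Rps27 (chr3:90213629-90213658, minus strand): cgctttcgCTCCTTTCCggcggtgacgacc
Rps26 (chr10:128626487-128626516, minus strand): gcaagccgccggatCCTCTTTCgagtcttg
Rps6 (chr4:86857348-86857377, minus strand): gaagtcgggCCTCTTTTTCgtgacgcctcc
Rpl35 (chr2:39005112-39005141, minus strand): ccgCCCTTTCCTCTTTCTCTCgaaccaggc
Rpl10a (chr17:28328461-28328490, plus strand): gCCCCCCCagcggccgcaaactgcagcgcc
Rpl37a (chr1:72711250-72711279, plus strand): ctcgccggtctaaaaccgcgcatgcgcatt
Rpl41 (chr10:128549149-128549178, minus strand): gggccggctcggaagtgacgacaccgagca
Rpl26 (chr11:68901556-68901585, plus strand): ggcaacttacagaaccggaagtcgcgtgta
Rpsa (chr9:120127756-120127785, plus strand): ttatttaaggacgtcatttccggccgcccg
Rpl27 (chr11:101442235-101442264, plus strand): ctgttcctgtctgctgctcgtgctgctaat
Rpl3l (chr17:24727816-24727845, plus strand): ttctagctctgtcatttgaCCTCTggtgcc

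The first 5 hold tracts of 8 to 18 bases, Rpl10a holds one of 7 bases before the start, Rpl3l one of 5 bases after it, and Rpl37a, Rpl41, Rpl26, Rpsa and Rpl27 hold none in this window. No match says only that these letters are not in the window. In the comparison of secretome with control, the median log2 fold change was -0.21 over the 39 members with a tract and -0.13 over the 23 without. Within libraries 6 to 15 the order was turned, with -0.14 and -0.16.

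Members tended to be lower in secretome-treated than in control muscle, by small amounts and none past the false discovery rate. In the quasi-likelihood test of edgeR, adjusted after Benjamini and Hochberg over 14471 genes, 0 of the 82 members passed a 5% false discovery rate, against 0.00691% of all genes (1 gene), and the smallest adjusted p of a member was 0.144. At an unadjusted p under 0.05, 30 members were lower and 0 higher, against 9.21% lower and 6.52% higher of all genes tested. The lower members were 36.6% of the 82. They were 17 of the large subunit (among them Rpl7, Rpl7a, Rpl10a, Rpl11, Rpl12, Rpl18, Rpl23a, Rpl26, Rpl28, Rpl35, Rpl36a, Rpl37a, Rpl38, Rpl39, Rpl41 and Rplp1) and 13 of the small subunit (among them Rps3, Rps3a1, Rps4x, Rps6, Rps9, Rps14, Rps15, Rps26, Rps27, Rps28, Rpsa and Fau). The log2 fold change was below 0 for 71 members (86.6%) and above 0 for 11, where 55.9% of all genes tested were below 0. The median over members was -0.19, against -0.03 over all genes tested. With DESeq2, 1 member passed the 5% false discovery rate, Rpl41 (log2 fold change -0.75, adjusted p = 0.0345), against 1.25% of genes. Without control replicates 3 and 9, which were picked because many of their members were high, the count was 18 and the median -0.13. That choice had to lower the count, and control replicate 1, which had the highest mean level of members, was kept in it. It was also 18 with voom and sample weights, a test that gives less weight to libraries that vary more.

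**Figure D1:**
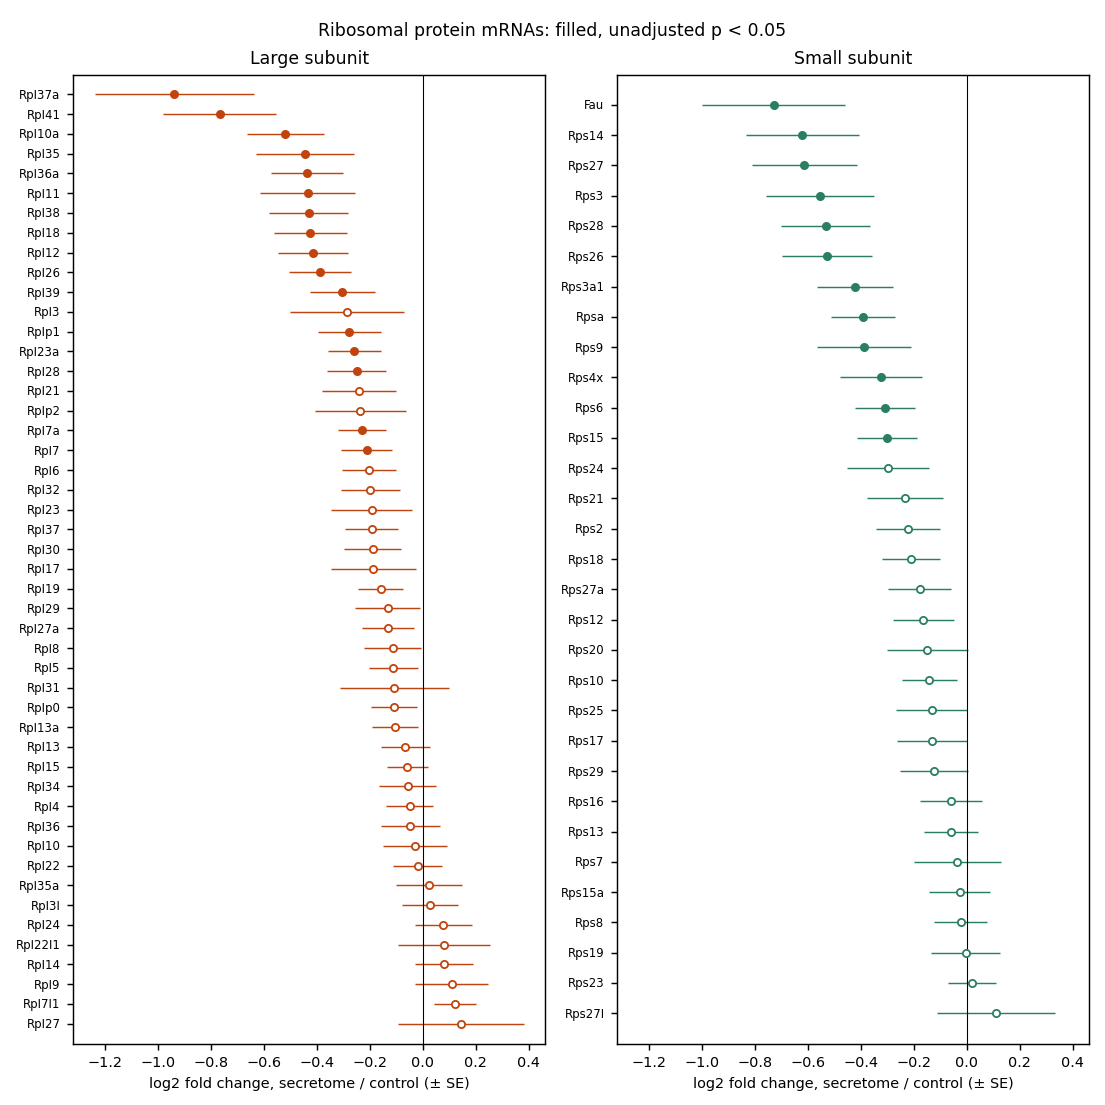
Log2 fold change of members of the large and the small subunit, secretome against control, with its standard error (edgeR, 10 muscles a group). Filled points had an unadjusted p under 0.05 and all lie to the left of 0, and Rpl37a (-0.94) lies farthest from 0.

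Several marker lists of other cells also had medians below 0, with 0 markers of any list past the 5% false discovery rate. Of 17 leukocyte markers, 14 were tested, 12 had a negative log2 fold change, 7 reached an unadjusted p under 0.05, with a median of -0.53. Their summed level was 124 to 594 CPM (median 210) in control and 81.2 to 340 CPM (median 108) in secretome-treated muscle, and no marker had a median count of 0. Fibroblast markers were negative for 6 of 6 genes, 0 of them at an unadjusted p under 0.05 (median -0.39, summed level 184 to 1128 CPM in control and 289 to 687 CPM in secretome-treated muscle). Adipocyte markers were negative for 4 of 4, with 1 at an unadjusted p under 0.05 (median -0.71, summed level 51.8 to 261 CPM and 25.6 to 90.7 CPM). The medians were -0.06 over the endothelial, -0.05 over the satellite cell, -0.20 over the blood and 0.09 over the myofibre markers, and of these 1 myofibre marker reached an unadjusted p under 0.05. The part of these cells in the members' levels was not tested.

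Among the large-subunit proteins, Rpl10a had the smallest p. Rpl10a forms part of the L1 stalk, which the used tRNA passes on leaving the ribosome. Its level in control muscle was 103 CPM at the lowest, 125 at the median and 233 at the highest, and in secretome-treated muscle 76.1, 98.4 and 120. All 10 secretome-treated muscles lay below the control median, while the ranges overlapped. The log2 fold change was -0.52 (standard error 0.144, p = 0.00149, adjusted p = 0.144, edgeR), and -0.41 without control replicate 3.

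Rpl41, a peptide so short that it is among the smallest proteins known, was at 104, 148 and 395 CPM in control (lowest, median, highest) and at 90.7, 107 and 141 CPM in secretome-treated muscle. Again all 10 treated muscles lay below the control median, and the spread was wide in control alone, with an SD of 98.8 against 17.1 CPM. The log2 fold change was -0.77 (standard error 0.213, edgeR adjusted p = 0.145). Rpl26, near the exit of the tunnel through which the new peptide leaves, was at 138 ± 32.1 CPM in control and 105 ± 12.98 CPM in treated muscle (mean ± SD, n = 10). It was also below the control median in 10 of 10 treated muscles, with a log2 fold change of -0.39 and an edgeR adjusted p of 0.158.

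Rpl37a had the lowest log2 fold change of all members, -0.94, with a standard error of 0.300 (edgeR adjusted p = 0.174). Its level was 93.8 CPM at the lowest, 133 at the median and 572 at the highest in control, and 74.0, 98.0 and 159 CPM in secretome-treated muscle. The highest control value was in replicate 2, and without that library the log2 fold change was -0.59, against -0.65 for Rpl41. Rpl41 came nearest to 0 without control replicate 3, at -0.58.

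The proteins of the stalk, where translation factors bind, gave smaller differences. Rplp0, the stalk base, was at 425 ± 54.7 CPM in control and 395 ± 39.2 CPM in secretome-treated muscle (log2 fold change -0.11, p = 0.224, edgeR test of 10 against 10 muscles). Rplp1 was at 161 ± 36.3 and 133 ± 20.5 CPM, a log2 fold change of -0.28. Rplp2 was at 64.6 ± 26.5 and 54.8 ± 12.3 CPM, a log2 fold change of -0.24, which was -0.05 without control replicate 9. Rplp1 was among the 17, with an edgeR adjusted p of 0.266, and Rplp0 and Rplp2 were not. Rpl32, a protein often taken as a reference in qPCR, was at 95.1 ± 20.6 and 82.8 ± 10.9 CPM (log2 fold change -0.20, edgeR adjusted p = 0.388). Rpl10, which is added last to the large subunit, was at 166 ± 40.4 and 162 ± 15.9 CPM (log2 fold change -0.03).

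Among the small-subunit proteins, Rpsa, which is also known as the laminin receptor, had the smallest p. Its level was 232 CPM at the lowest, 295 at the median and 457 at the highest in control, and 207, 249 and 309 CPM in secretome-treated muscle. Of 10 treated muscles 9 lay below the control median, and the ranges overlapped. The log2 fold change was -0.39 (standard error 0.120, edgeR adjusted p = 0.159).

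Rps28 was at 73.4 ± 30.0 CPM in control and 50.7 ± 8.94 CPM in secretome-treated muscle, and Rps26, which lies at the channel where mRNA leaves, at 113 ± 49.5 and 78.7 ± 11.3 CPM. Both log2 fold changes were -0.53, and without control replicate 3 they were -0.37 for Rps28 and -0.34 for Rps26. Rps27, a zinc finger protein, was at 35.9, 80.6 and 169 CPM (lowest, median, highest) in control and at 45.0, 57.4 and 80.5 CPM in treated muscle. Its log2 fold change was -0.61, and -0.46 without control replicate 3. All 10 treated muscles lay below the control median of Rps27, although the lowest value of all was a control. The edgeR adjusted p of these 3 genes was 0.168, 0.173 and 0.175.

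Rps6, the ribosomal protein that S6 kinases phosphorylate, was at 81.2, 109 and 150 CPM in control and 75.0, 93.3 and 105 CPM in secretome-treated muscle. All 10 treated values were below the control median (log2 fold change -0.31, standard error 0.112, edgeR adjusted p = 0.205). Fau and Rps27a are made as fusions, to a ubiquitin-like protein and to ubiquitin, and are then cleaved. Fau was at 105 ± 69.9 and 63.3 ± 13.7 CPM (log2 fold change -0.73, edgeR adjusted p = 0.215, and -0.47 without control replicate 2). Rps27a was at 49.6 ± 9.75 and 43.8 ± 8.60 CPM (log2 fold change -0.18, edgeR adjusted p = 0.464, and -0.11 without control replicate 9). Rps14, which lies at the platform of the small subunit, was at 236 ± 116 and 153 ± 31.5 CPM (log2 fold change -0.62, edgeR adjusted p = 0.195).

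The remaining 52 members had an unadjusted p of 0.0599 or more and log2 fold changes from -0.30 to 0.14. The 11 above 0 included Rpl3l, Rpl7l1, Rpl9, Rpl14, Rpl22l1, Rpl24, Rpl27, Rpl35a, Rps23 and Rps27l. The highest were Rpl27 (0.14, from 41.9 ± 17.7 CPM in control to 46.2 ± 8.55 CPM in secretome-treated muscle) and Rpl7l1 (0.12, from 19.9 ± 2.33 to 21.6 ± 2.04 CPM). In the small subunit it was Rps27l (0.11). No member above 0 had an edgeR adjusted p below 0.455. The signs of Rpl3l, Rpl22l1, Rpl35a, Rps23 and Rps27l each turned when 1 library was left out. Without control replicate 2, Rpl27 was at 0.023, Rpl9 at 0.023, Rpl14 at 0.011 and Rpl24 at 0.0064.

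The subunits gave like values. The median log2 fold change was -0.19 over the 49 large-subunit and -0.21 over the 33 small-subunit members, a difference of 0.02. A score per muscle, the mean over members of the deviation of log2 CPM from the gene's own mean, was -0.15 to 0.33 for the large and -0.14 to 0.40 for the small subunit in control muscle. In secretome-treated muscle it was -0.31 to 0.17 and -0.35 to 0.20. The large score minus the small score lay between -0.10 and 0.06 in every muscle, so each muscle had nearly the same mean deviation in both subunits. This mean gives each member the same weight. The ratio of summed large-subunit to summed small-subunit counts was 1.31, 1.34 and 1.36 in control replicates 2, 3 and 9. In the other muscles it was 1.43 to 1.57. The highest scores were in control replicates 1, 3 and 9, and the lowest in secretome replicates 10, 5 and 4.

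**Figure D2:**
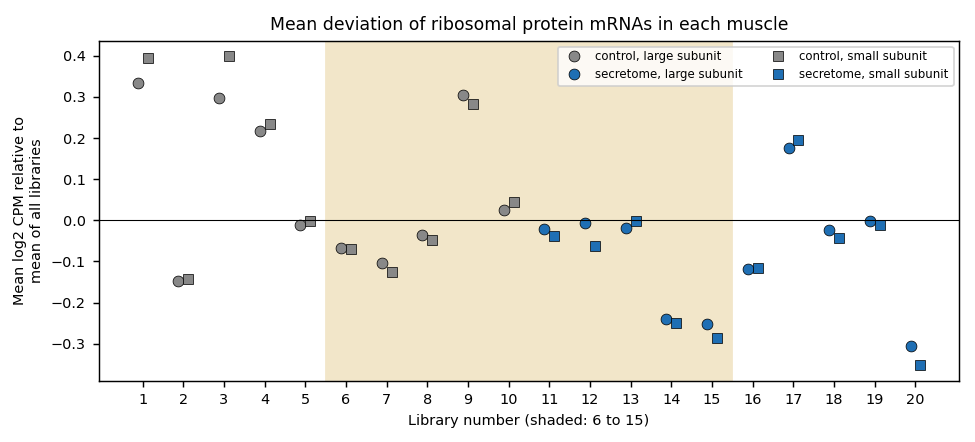
Mean deviation of log2 CPM from the mean of all libraries over the 49 large-subunit (circles) and 33 small-subunit members (squares), 1 pair of points per muscle in order of library number (controls grey, secretome blue). The 2 subunits lie together in each muscle, and within the shaded libraries 6 to 15 control replicate 9 (library 9) stands above the other 9 muscles.

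Levels between genes were compared per length, as CPM per kilobase of the principal transcript. Rps2, which lies at the channel where mRNA enters, was the highest at 356 ± 67.9 CPM per kilobase in control and 305 ± 61.1 in secretome-treated muscle. Rplp0 followed with 313 ± 40.3 and 291 ± 28.9, and Rplp1 with 322 ± 72.8 and 266 ± 41.1. The mean ± SD of these 3 overlapped in each group, and their differences within a muscle were not tested. The lowest were Rpl7l1 (7.63 ± 0.893 and 8.29 ± 0.781), Rps15a (12.6 ± 2.66 and 12.4 ± 1.30), Rps10 (15.6 ± 2.69 and 14.1 ± 1.78) and Rpl22 (19.6 ± 3.10 and 19.3 ± 2.43). The value of Rps15a rests on an annotated transcript of 5179 bases, the longest of any member, and a shorter transcript would give a higher level.

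Within libraries 6 to 15, where both treatments are found, few members passed an unadjusted threshold. Of 14469 genes tested 0 passed the 5% false discovery rate in edgeR (0.0%), none of them a member. At an unadjusted p under 0.05, 5 members were lower, among them Rpl28, Rps2, Rpsa and Rps15, and 0 higher, against 4.92% lower and 5.02% higher of all genes. These 5 are 6.10% of the members, a share near that of all genes. The log2 fold change was below 0 for 68 of 82 (82.9%), against 52.1% of all genes. The median was -0.16 over all members, -0.14 over the large and -0.17 over the small subunit, against -0.01 over all genes.

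Without control replicate 9 that median was -0.04. The count of 5 ranged from 1 without secretome replicate 4 and 2 without secretome replicate 5 to 9 without control replicate 7 and 13 without secretome replicate 3. Rpl28 had the smallest p, with a log2 fold change of -0.31 (standard error 0.1003, edgeR p = 0.00762, adjusted p = 0.443). Rpsa was at 252.4 to 457 CPM in the 5 controls of this range and at 214 to 268 CPM in the 5 treated muscles (log2 fold change -0.36, edgeR p = 0.0276). Rpl41 was at 104 to 159 and 90.7 to 123 CPM (log2 fold change -0.26), and Rps27 at 35.9 to 80.7 and 45.0 to 61.7 CPM (log2 fold change -0.12). Summed leukocyte markers were at 124 to 330 CPM in these controls and 81.2 to 147 CPM in these treated muscles.

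The muscles outside that range were also compared. Their median log2 fold change over members was -0.21, against -0.16 within libraries 6 to 15. Over all genes these medians were -0.05 and -0.01. In every comparison the control libraries have lower numbers than the secretome libraries, so treatment and library number cannot be told apart. This holds within libraries 6 to 15 as well. Among controls alone, the mean of replicates 1 to 5 was above that of replicates 6 to 10 for 56 members, 28 of them among the 30 lower. The mean of secretome replicates 1 to 5 was below that of control replicates 6 to 10 for 29 of the 30. The 30 were chosen as lower over these same libraries, so the 28 and 29 were in part set by that choice and are no independent support. These shares were not computed over all genes. Between secretome replicates 6 to 10 (libraries 16 to 20) and control replicates 1 to 5 (libraries 1 to 5), 11 members passed the 5% false discovery rate in edgeR, against 3.68% of all genes. They were Rpl41 (log2 fold change -1.09), Rps27 (-0.95), Rps26 (-0.80), Rps28 (-0.80), Rpl35 (-0.79), Rpl12 (-0.64), Rps3a1 (-0.63), Rpl26 (-0.58), Rpl39 (-0.53) and Rpl23a (-0.43), all lower, and Rpl7l1 (0.36), which was higher. At an unadjusted p under 0.05, 26 members were lower and 2 higher, against 11.6% and 9.56% of all genes. Below 0 were 62 members in this comparison and 68 within libraries 6 to 15, against 55.4% and 52.1% of all genes, and 52 members in both. The log2 difference was smaller in size within libraries 6 to 15 for 61 of the 82 members. Neither the overlap nor that share was computed over all genes, so they are not read as results about the members.

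The difference between the 2 ranges was itself tested with an interaction term, in which 0 members passed the 5% false discovery rate (0.0553% of all genes). At an unadjusted p under 0.05 the treatment difference was higher within libraries 6 to 15 for 9 members and lower for 2, against 5.59% and 5.51% of all genes. The 9 were Rpl35, Rps27, Rpl41, Rpl26, Rpl30, Rpl23a, Rps26, Rpl39 and Rps28, and the 2 were Rpl7l1 and Rpl9. Rpl35 gave -0.79 outside and 0.07 within (interaction 0.85, edgeR adjusted p = 0.190). Rpl7l1 gave 0.36 outside and -0.10 within (interaction -0.47, edgeR adjusted p = 0.165).

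**Figure D3:**
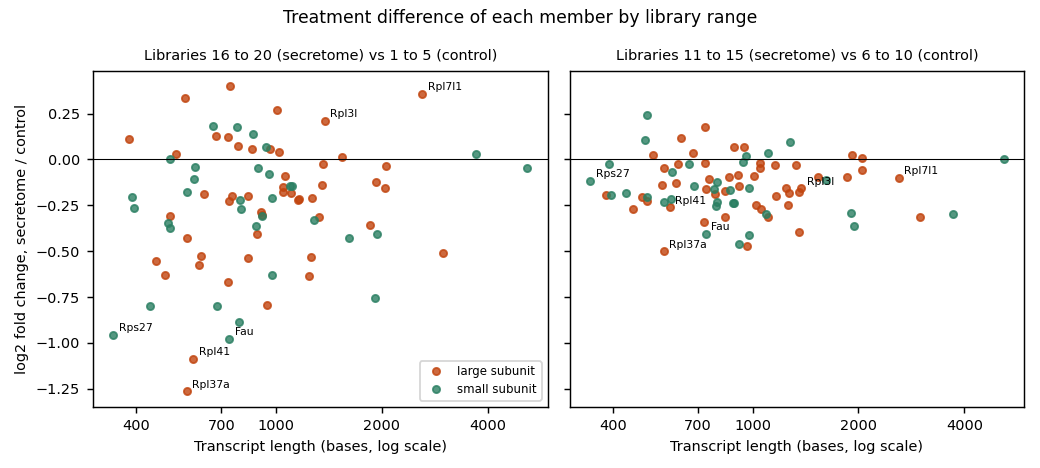
Log2 fold change of each of the 82 members against the length of its principal transcript (bases, log scale), left between libraries 16 to 20 (secretome) and 1 to 5 (control) and right within libraries 6 to 15. On the left several short transcripts lie far below 0, such as Rpl41 (-1.09) and Rps27 (-0.95), and on the right the members lie between -0.50 and 0.24.

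Members were also set beside all genes of the same transcript lengths. Among the shortest members (345 to 733 bases, 28 genes) the median log2 fold change was -0.22, against -0.13 over the 501 genes tested of those lengths. Among those of middle length (736 to 1020 bases, 26 genes) it was -0.19, against -0.17 over 613 genes. Among the longest (1047 to 5179 bases, 28 genes) it was -0.17, against -0.04 over 10668 genes. Within libraries 6 to 15 the members gave -0.13, -0.16 and -0.14, against -0.02, -0.07 and -0.02. Between libraries 16 to 20 and 1 to 5 they gave -0.29, -0.21 and -0.17, against -0.23, -0.24 and -0.05. The short and middle members there were thus near all genes of their lengths, a set that includes the members themselves. When trends on transcript length and GC content were removed from each library, the members' median was -0.07 in place of -0.19, against 0.02 over all genes, 54 of 82 were below 0 and 20 were lower at an unadjusted p under 0.05. Of the 30, 19 were among these 20, among them Rpl10a, Rpl41, Rpl37a, Rps6, Rpsa, Rps27 and Fau.

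Members did not all follow one another between muscles. Over the 20 libraries the median correlation (Pearson's r) between 2 members was 0.43, with a range from -0.85 for Rpl27 and Rpl37a to 0.99 for Fau and Rpl37a. These points share libraries and their depth, so r is given as a description. Rpl3l had the lowest mean r with the other members, -0.16. Control replicate 2 showed the widest spread over members, an SD of 0.785 in log2 deviation against 0.152 to 0.5005 in the other 19 libraries, and 14 members lay over 1 log2 unit from their mean there. Control replicates 3 and 9 had 10 and 8 such members, control replicate 1 had 1, and the other 16 libraries had 0.

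In control replicate 2, Rpl37a was 2.18, Fau 1.81, Rps14 1.39 and Rps3 1.39 log2 units above their means. In the same muscle Rpl27 was at -2.21, Rps27l at -1.78 and Rpl31 at -1.52. Genes of both subunits were thus found on both sides. The log2 ratio of Rpl37a to Rpl27, a pair chosen after the values were seen, was 6.01 in control replicate 2, 3.78 in control replicate 9 and 3.26 in control replicate 3. In the other 7 controls it was 0.88 to 1.83, and in secretome-treated muscle 0.66 to 2.25, with the highest value in replicate 3. Without control replicate 2, the log2 fold change of Fau was -0.47 in place of -0.73 and that of Rps14 -0.45 in place of -0.62.

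**Figure D4:**
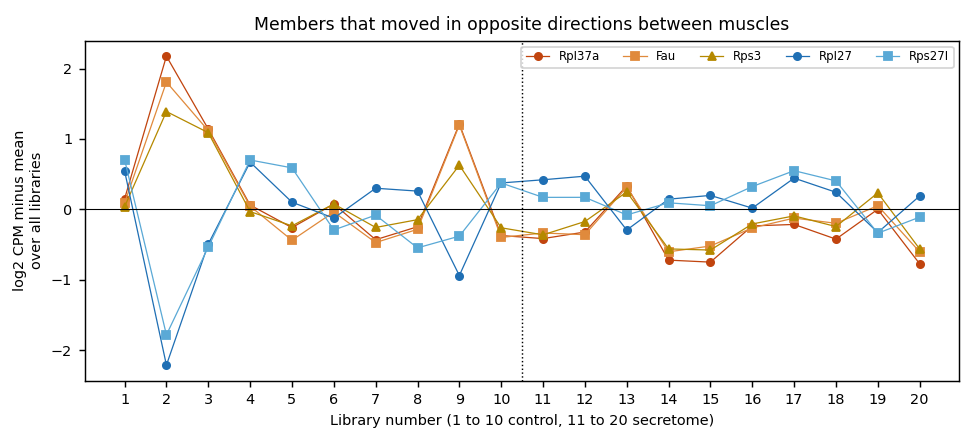
Log2 CPM minus the mean over all libraries for Rpl37a, Fau and Rps3 (warm colours) and Rpl27 and Rps27l (blue), in order of library number, with control on the left and secretome on the right of the dotted line. In control replicate 2 the first 3 stand at 1.39 to 2.18 and the other 2 at -2.21 and -1.78, and in control replicates 3 and 9 they part in the same way by less.

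Paralogues, genes that arose as copies of one another, were compared by the log2 ratio of their CPM in each muscle, which does not depend on the scaling of the library. Of 8 pairs 6 could be tested. Rpl3l was more abundant than Rpl3, the protein that reaches the peptidyl transferase centre. Per length its level was 7.70 times that of Rpl3 at the median of the 20 muscles, with a range from 2.40 to 14.8. Rpl3l was at 292 ± 42.0 CPM in control and 298 ± 53.0 CPM in secretome-treated muscle, and Rpl3 at 44.7 ± 22.9 and 36.7 ± 9.60 CPM. The difference of the log2 ratio between treatments was 0.24 (permutation test, two-sided, 100000 resamples, adjusted over the 6 pairs, p = 0.507), within the spread between mice of 0.687 (SD, control).

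For 3 pairs the ratio passed the threshold. The log2 ratio of Rps27l to Rps27 was -1.70 ± 0.913 in control and -0.95 ± 0.184 in treated muscle (permutation test, adjusted p = 0.0157). That of Rpl7l1 to Rpl7 was -3.22 ± 0.299 and -2.89 ± 0.152 (adjusted p = 0.0157 by permutation). That of Rpl36al, a copy of Rpl36a on another chromosome whose symbol is outside the naming rule, to Rpl36a was -1.08 ± 0.487 and -0.44 ± 0.253 (adjusted p = 0.00228 by permutation). In each of these 3 pairs, 10 of 10 treated muscles lay above the control median. The more abundant genes of these pairs, Rps27, Rpl7 and Rpl36a, were among the 30 lower members. Their paralogues Rps27l, Rpl7l1 and Rpl36al had log2 fold changes of 0.11, 0.12 and 0.20, with no edgeR adjusted p below 0.426.

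Within libraries 6 to 15 these differences were smaller. The difference in log2 ratio was 0.40 for Rpl36al to Rpl36a (exact permutation test, two-sided, p = 0.0397), 0.35 for Rps27l to Rps27 (exact p = 0.238) and 0.07 for Rpl7l1 to Rpl7 (exact p = 0.786). After adjustment over the 6 pairs the first was at p = 0.238 (exact permutation test), where 5 against 5 muscles allow a smallest p of 0.00794. Rpl22l1 was at 12.5 ± 3.70 CPM in control and 13.2 ± 4.02 CPM in secretome-treated muscle, and its ratio to Rpl22 differed by 0.08 (permutation test, adjusted p = 0.535). Rps4l, an annotated pseudogene of at most 40 counts, gave a ratio to Rps4x that differed by -0.39 (permutation test, adjusted p = 0.288), and reads of such near-identical copies may have been split in counting. Rpl39l and Rpl10l were too low to test.

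**Figure D5:**
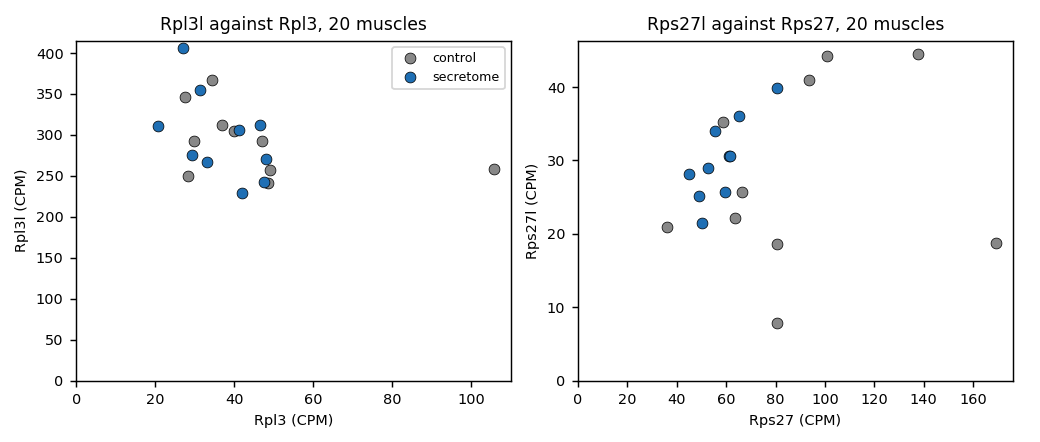
CPM of Rpl3l against Rpl3 and of Rps27l against Rps27 in each of the 20 muscles (control grey, secretome blue). Control replicate 9 lies apart in the first panel at 106 CPM of Rpl3, and in the second panel the treated muscles lie between 45.0 and 80.5 CPM of Rps27 while the controls reach 169 CPM.

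The other genes of translation had medians nearer 0 than the members over all libraries, and less clearly so within libraries 6 to 15. In the comparison of all libraries 0 genes of any of 4 lists passed the 5% false discovery rate in edgeR, and with DESeq2 1 gene did, Eef1a1. Of 40 ribosome biogenesis genes, 0 were lower and 1 was higher at an unadjusted p under 0.05, against 9.21% lower and 6.52% higher of all genes, with a median log2 fold change of -0.06. The higher one was Rrn3, an initiation factor of RNA polymerase I (0.19, edgeR adjusted p = 0.246), and Nip7, which acts in assembly of the large subunit, was at -0.25 (edgeR adjusted p = 0.340). Of 26 other TOP mRNAs and snoRNA host genes, 2 were lower (7.69%) and 1 higher, against the same 9.21% and 6.52%, with a median of -0.06. The lower ones were Eef1a1, the elongation factor that brings tRNA to the ribosome (-0.52, edgeR adjusted p = 0.144, from 358 ± 90.9 to 249 ± 60.3 CPM), and Eif3k, a subunit of initiation factor eIF3 (-0.27, edgeR adjusted p = 0.205). The higher one, Eif2s3x, a subunit of initiation factor eIF2, was at 0.24.

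Of 21 genes that control TOP mRNAs or RNA polymerase III, 1 was lower (4.76%) and 3 were higher, with a median of 0.01, where 9.21% of all genes were lower and 6.52% higher. Larp4, which binds poly(A) tails of mRNAs, was at 0.23 and Larp1b, a relative of the TOP-binding Larp1, at 0.21 (edgeR adjusted p = 0.194 and 0.241). The third higher one was Eif4ebp2, a binding protein of the cap factor eIF4E, with 0.22, and the lower one Rps6kb2, an S6 kinase, with -0.20. Of 78 mitochondrial ribosomal proteins, which build the separate ribosome of that organelle, 6 were lower (7.69%) and 4 higher, with a median of -0.03, shares near the 9.21% and 6.52% of all genes. The smallest p were those of Mrps9 (0.27) and Mrpl19 (0.30), both above 0 (edgeR adjusted p = 0.166 and 0.180). In libraries 6 to 15 the medians were -0.13 over the biogenesis genes, -0.11 over the other TOP mRNAs, -0.05 over the TOP control genes and -0.06 over the mitochondrial proteins, against -0.16 over the members. There 7 of the 26 other TOP mRNAs were lower at an unadjusted p under 0.05 (26.9%), against 6.10% of the members and 4.92% of all genes. The differences between lists were not tested.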

How the data were processed

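Quadriceps RNA of 20 mice was sequenced from stranded libraries of total RNA. The authors deposited whole-number counts of reads per gene for each library, without normalization. The submitters' processing notes name cutadapt 1.16, STAR 2.7.9a, featureCounts 1.6.3, DESeq2 1.34.0 and the genome build GRCm39 (mm39). The annotation release and the handling of reads that match several places are not given in the sources used here. Rows of ribosomal pseudogenes named -ps held 0.337% as many reads as the members, and how reads were shared with such copies is unknown.

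Groups and replicate numbers came from the sample titles. Genes were matched to symbols, biotypes and lengths of principal transcripts through GENCODE M21 (GRCm38), another build than that of the counts, so only names, lengths and GC content were used, and 94.0% of identifiers had a symbol. Counts were filtered with filterByExpr, normalized with TMM and compared in edgeR 4.0.16 (R 4.3.3) by quasi-likelihood F-tests with robust dispersions, a model of treatment alone and p-values adjusted over all genes tested (Benjamini-Hochberg). Standard errors were obtained by dividing the log2 fold change by the square root of F. Log2 CPM used a prior count of 2. Calls are an unadjusted p under 0.05 and a 5% false discovery rate. Paralogue ratios were compared by permutation with scipy. The procedure was tested on simulated data. Sequences are from RefSeq.

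The members and gene lists were chosen with earlier results of these data known. Genes named are those of 8 paralogue pairs, the stalk proteins, Rpsa, Fau, Rps27a, Rps6, Rpl32, in each subunit the 4 of smallest p, the 2 of highest log2 fold change and the 2 highest and 2 lowest in level per length, and the 2 of smallest p in each other list. Members named beyond these, such as Rpl37a and the full lists of members below or above 0, were chosen after their values were seen. A few genes are not reported here.

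Alternatives were DESeq2 1.42.0, RLE scaling, no filter, the members' count rule as a filter, the replicate number as a block, a term for libraries 6 to 15, offsets for transcript length and GC content, voom of limma 3.58.1 with quality weights, a 10% false discovery rate, a prior count of 0.5 and leaving out each library. Removal of control replicates 3 and 9 together and the split by length were added after the data were seen.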

Additional observations from a re-analysis of the deposited data

Results flagged for a closer look

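Of 98 groups of 10 muscles tested for a value far from the others, 10 held one. Chance flags about 1 in 20 such groups, or 4.9 here. The test divided the gap between the highest or lowest muscle and the nearest of the others by the range of the group (Dixon's test, 95 percent level). Most were controls of replicate 2 or 9.

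Control replicate 2 was the lowest control for Rps27l (log2 CPM 2.99, next 4.22), Rpl10 (6.47, next 7.16), Rpl36al (2.80, next 3.49) and Rps15a (5.10, next 5.86). Control replicate 9 was the highest control for Rpl3 (6.73, next 5.62), Rpl22 (5.83, next 5.39) and Rplp2 (7.08, next 6.13).

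In secretome-treated muscle, replicate 7 was the highest for Rps28 (log2 CPM 6.19, next 5.75) and Rps26 (6.73, next 6.44). Control replicate 10 had the highest log2 ratio of Rpl22l1 to Rpl22 among controls (-1.05, next -1.47).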

How the results depend on the processing

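The members' median kept its sign under every alternative run, and over all libraries 0 members were higher at an unadjusted p under 0.05 in any of them. At a 10% false discovery rate 0 members passed. With DESeq2, 1 member (1 of the large subunit) and 1 other TOP gene passed the 5% false discovery rate, 3 mitochondrial genes were lower, and 3 large-subunit members were lower within libraries 6 to 15. Without a filter, 2 biogenesis genes and 5 TOP control genes were higher and 0 TOP control genes lower, and within libraries 6 to 15 8 members (5 large) were lower. With length and GC offsets, 10 large-subunit members, 2 biogenesis, 0 TOP control and 2 mitochondrial genes were lower, 2 biogenesis and 6 TOP control genes higher, and the mitochondrial median turned to 0.089. With voom, 18 members (9 large), 4 other TOP and 0 TOP control genes were lower, and 2 biogenesis and 2 mitochondrial genes higher. Without control replicates 3 and 9, 18 members (11 large, 7 small), 1 other TOP, 0 TOP control and 3 mitochondrial genes were lower, and 3 biogenesis, 0 other TOP and 2 mitochondrial genes higher. The causes were not tested.

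Samples of the same replicate number did not deviate together (r from -0.240 to 0.221, over 0.1 in 2 of 10 pairs). They were therefore not treated as pairs in the main model. Whether they shared anything beyond the number cannot be read from these values. With the replicate block 28 members were lower (median -0.17), as were 1 biogenesis, 0 TOP control and 3 mitochondrial genes, and the paralogue ratios kept their calls. Within libraries 6 to 15 the ratio of Rpl22l1 to Rpl22 turned to -0.15, and those of Rps27l (0.35), Rpl7l1 (0.072) and Rpl36al (0.40) no longer passed.

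Leaving out each library in turn, 23 (without control replicate 3) to 36 members (without control replicate 2) were lower, with a median of -0.22 to -0.15, and no paralogue ratio lost its call. The counts ranged from 0 to 3 lower and 1 to 3 higher for biogenesis, 2 to 3 and 0 to 2 for other TOP, 0 to 1 and 2 to 5 for TOP control, and 3 to 10 and 2 to 5 for mitochondrial genes. The medians ranged from -0.070 to 0.021 for biogenesis, -0.021 to 0.060 for TOP control and -0.064 to 0.0033 for mitochondrial genes, and the large minus the small subunit from -0.0066 to 0.069. Within libraries 6 to 15, 1 to 13 members (1 to 6 large, 0 to 7 small) were lower and 0 to 1 higher, and the subunits differed by 0.0047 to 0.079.

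Small log2 fold changes turned in sign. With offsets Rpl22 was at 0.023, Rpl10 at 0.030, Rplp0 at 0.012 and Rps10 at 0.056. With voom Rpl3l was at -0.036 and Rpl22 at 0.018, and with the block Rpl10 at 0.0054. Without control replicates 3 and 9 Rpl22 was at 0.054 and Rpl10 at 0.027. Leaving out 1 library gave -0.033 to 0.068 for Rpl3l, -0.0022 to 0.19 for Rpl22l1, -0.046 to 0.049 for Rpl22, -0.0014 to 0.21 for Rps27l, -0.10 to 0.043 for Rpl10 and -0.10 to 0.016 for Rps15a. Of the members named after their values were seen, Rps23 turned to -0.026 and Rpl35a to -0.043 without control replicate 2. No other call or sign of the genes named by the rules above changed under these settings, apart from Rpl41 and Eef1a1 in DESeq2.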
